A study of Mus musculus with 9 samples.

Results

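The genes of major histocompatibility complex (MHC) class II presentation were followed in 9 Hepa1-6 liver tumors of the mouse. The set was picked by name and holds 9 of the 52176 named genes in the files: H2-Aa, H2-Ab1, H2-Eb1, Cd74, Ciita, H2-DMa, H2-DMb1, H2-Oa and H2-Ob. Their level was the FPKM of a row that names the gene, that is, the fragments mapped to the gene, scaled to transcript length and to all mapped fragments. H2-Ab1 and H2-Eb1 shared 1 row in anti-PD-1-responsive tumor 2 and were therefore summed in all tumors, which left 8 of 48254 loci. Cd74 shared its row with Mir5107 in every tumor, H2-Aa with Gm20513 in 2 tumors, H2-DMa with Gm50336 in 4 tumors, and H2-DMb1 with its neighbouring copy H2-DMb2 in 7 tumors. Such partners were summed with the gene in all tumors, so FPKM values of H2-DMb1 below are those of H2-DMb1 with H2-DMb2. On GRCm38 the genes other than Cd74 and Ciita lie in the MHC on chromosome 17, from H2-Oa to H2-Eb1 within chr17:34092340-34316674, and FPKM counts fragments over all exons of a gene.

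Hepa1-6 is a hepatoma cell line of the mouse, and the tumors grew in the left liver lobe of male C57BL/6 mice from implanted pieces of subcutaneous tumor. The mice received PBS (3 tumors) or anti-PD-1 antibody (6 tumors) by intraperitoneal injection every 4 days, 5 times, and tumors were freed of surrounding tissue before RNA extraction. Of the antibody-treated mice, those with large tumors formed the nonresponsive group (3 tumors) and those with small tumors the responsive group (3 tumors), while mice in between were left out. Response is thus defined by tumor size at the end, every tumor comes from 1 cell line, and each RNA sample is a whole tumor with its immune, vascular and remaining liver cells. Fewer cells of a type and less RNA per cell cannot be told apart in such samples.

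MHC class II molecules are pairs of an alpha and a beta chain that show peptides from engulfed or internal proteins to CD4+ T cells. New pairs leave the endoplasmic reticulum with the invariant chain CD74 in their groove. In endosomes proteases cut this chain down, H2-DM then exchanges the remaining fragment for a peptide, and H2-O inhibits H2-DM. Dendritic cells, B cells and macrophages carry these genes most, and CIITA switches them on as a coactivator that interferon-gamma can induce. H2-O is known mainly from B cells and some dendritic cells.

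CIITA acts through proteins that sit on short promoter elements, the X element bound by the RFX complex and the Y element bound by NF-Y. The promoters are shown because genes with unlike patterns across these tumors, H2-Aa and the H2-O genes among them, hold the same pair of elements. RefSeq promoters on GRCm38.p6, each from 250 bases before to 50 bases after a gene's start, were at hand for H2-Aa, H2-Eb1, H2-DMa, H2-DMb1, H2-Oa and H2-Ob, and not for H2-Ab1, Cd74 and Ciita. The letters GNAAC followed by ATTGG, with 30 to 36 bases between their first letters, stood on the gene's strand in 5 of those 6 genes, and the distance was 30 to 33 bases. Both the letters and the distance were chosen after these promoters were seen. Of 32851 promoters of the same length in the table, 0.581% held the pair on the gene's strand and 1.25% on either strand, whereas ATTGG alone was found in 37.4%. Neither of the 2 listed promoters of H2-DMa held the pair. Nor did the listed promoter of H2-DMb2, whose FPKM is summed with that of H2-DMb1. The stretches of 75 bases read 5′ to 3′ on the gene's strand, and capitals mark GNAAC and ATTGG.
H2-Aa: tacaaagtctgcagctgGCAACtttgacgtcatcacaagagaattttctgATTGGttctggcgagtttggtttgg
H2-Eb1: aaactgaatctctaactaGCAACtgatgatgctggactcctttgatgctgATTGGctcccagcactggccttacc
H2-DMb1: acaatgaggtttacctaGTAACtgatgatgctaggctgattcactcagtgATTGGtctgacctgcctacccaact
H2-Oa: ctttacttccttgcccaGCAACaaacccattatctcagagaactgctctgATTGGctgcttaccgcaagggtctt
H2-Ob: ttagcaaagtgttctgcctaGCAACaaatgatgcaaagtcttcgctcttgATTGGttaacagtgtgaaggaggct
The H2-Aa stretch lies at chr17:34287847-34287921 on the minus strand. The others lie on the plus strand, at chr17:34305758-34305832 for H2-Eb1, chr17:34153080-34153154 for H2-DMb1, chr17:34092286-34092360 for H2-Oa and chr17:34238798-34238872 for H2-Ob. The ATTGG began 43 bases before the start of H2-Oa and 61 bases before that of H2-DMb1, with the other 3 genes in between.

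The number of sequenced fragments is not in the files, but the width of the deposited confidence intervals gave a relative depth of 0.940 to 1.07, with PBS tumor 1 set to 1. Rows that name no gene took 70.4% to 73.2% of the summed FPKM of a tumor in the nonresponsive group and 21.0% to 55.1% in the responsive group, against 81.5%, 50.3% and 19.2% in PBS tumors 1 to 3. In the nonresponsive and responsive groups the named rows summed to 651110 to 716227 and to 765576 to 814452 FPKM, respectively. PBS tumor 1 stood apart, with the lowest value of all 9 tumors at 7 of the 8 loci. PBS tumor 2 was above the median of the antibody-treated tumors at 7 of 8 loci, whereas PBS tumors 1 and 3 were above it at 0 of 8. Each tumor is 1 mouse. The limma p-values set a difference of group means against the spread between tumors of a group, estimated with help from all loci tested. The nonresponsive and responsive tumors were picked by size, so their spread may not be that of all treated mice.

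H2-Aa encodes the alpha chain of I-A, the only complete class II molecule of this strain. Its FPKM was 411, 927 and 602 in the PBS tumors, 1121, 886 and 806 in the nonresponsive tumors, and 776, 773 and 1077 in the responsive tumors. The means were 647 ± 261 (SD, n = 3), 938 ± 164 and 875 ± 175, respectively. PBS tumors 1 and 3 lay below every antibody-treated tumor, PBS tumor 2 lay among them, and the nonresponsive and responsive tumors overlapped.

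The beta chain genes H2-Ab1 and H2-Eb1 together had an FPKM of 991, 1952 and 1309 in the PBS tumors, 2599, 1813 and 1783 in the nonresponsive tumors, and 1683, 2008 and 2135 in the responsive tumors. In the 8 tumors with separate rows, H2-Ab1 ran from 446 in PBS tumor 1 to 1337 in nonresponsive tumor 1, and H2-Eb1 from 545 to 1262 in the same tumors. H2-Eb1 pairs with the alpha chain of H2-Ea, which C57BL/6 mice are known not to make. H2-Ea was at 0 in 8 tumors and at 0.115 in responsive tumor 2.

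Cd74 was the most abundant member. Its FPKM was 1385, 2855 and 1875 in the PBS tumors, 2901, 2671 and 2566 in the nonresponsive tumors, and 2065, 2442 and 3222 in the responsive tumors. As for the chains, PBS tumor 1 was lowest, and the antibody-treated groups overlapped.

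Ciita was expressed at a far lower level, with an FPKM of 8.89, 27.9 and 13.2 in the PBS tumors, 19.8, 16.7 and 16.4 in the nonresponsive tumors, and 13.1, 17.0 and 21.9 in the responsive tumors. The highest and the lowest of the 9 values were both in PBS tumors. The group means of 16.7 ± 9.99, 17.6 ± 1.89 and 17.3 ± 4.42 (SD, n = 3) lay closer together than the spread within the PBS group.

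H2-DMa and H2-DMb1 encode the 2 chains of H2-DM. H2-DMa was listed at 0 in PBS tumor 1 and had an FPKM of 113 and 100.03 in the other PBS tumors, 129, 108 and 107 in the nonresponsive tumors, and 102, 116 and 128 in the responsive tumors. H2-DMb1 was listed at 0 in PBS tumor 3, stood at 78.6 and 112 in PBS tumors 1 and 2, at 97.3, 86.3 and 112 in the nonresponsive tumors, and at 82.0, 122 and 129 in the responsive tumors. In neither tumor was the other chain at 0, and across all loci 70 were listed at 0 in a single tumor with at least 10 in the other 8, 27 of them in PBS tumor 1. Such a 0 may be a failed estimate, so the PBS values of these genes are given only tumor by tumor, and their differences from PBS also with the zeros left out. Apart from the zeros, all 16 values of these loci lay between 78.6 and 129.

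H2-Oa and H2-Ob encode the chains of H2-O and, listed zeros apart, spanned the widest range of the members in proportion to their level. The FPKM of H2-Oa was 1.54, 9.11 and 6.29 in the PBS tumors, 9.36, 5.33 and 3.33 in the nonresponsive tumors, and 12.7, 7.64 and 22.5 in the responsive tumors. That of H2-Ob was 0.693, 7.40 and 3.23 in the PBS tumors, 6.67, 2.47 and 2.25 in the nonresponsive tumors, and 11.4, 8.23 and 24.6 in the responsive tumors. The 3 responsive tumors held the 3 highest H2-Ob values. For H2-Oa, responsive tumor 2 lay among the other groups, and both genes were lowest in PBS tumor 1 and highest in responsive tumor 3.

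**Figure D1:**
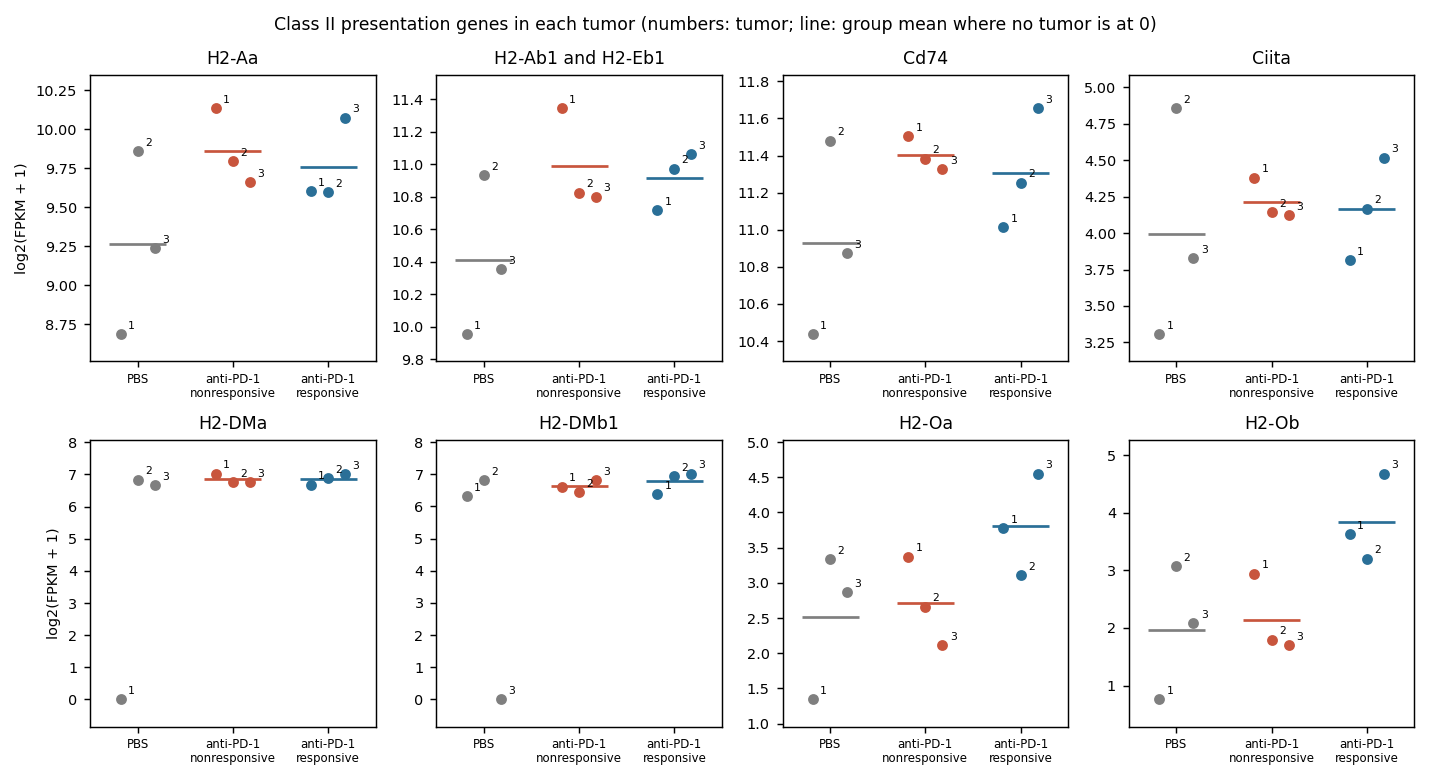
Level of the 8 class II presentation loci in each tumor, as log2(FPKM + 1) on the vertical axis, with points for tumors 1 to 3 of each group and a line at the group mean where no tumor is at 0. The vertical axes differ between panels and do not start at 0 except for H2-DMa and H2-DMb1, where a PBS tumor is listed at 0. The 3 responsive tumors sit above all others only in the H2-Ob panel.

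The sequencing, part of a wider study, served to compare gene expression of responsive and nonresponsive tumors under the same antibody. Differences are between group means of log2(FPKM + 1), positive where the first group is higher, and were tested with limma on all loci that reached an FPKM of 1 in 3 or more of the compared tumors. Between responsive and nonresponsive tumors, 4 of the 8 loci were higher and 4 lower, and the median difference was −0.02 against −0.07 over all 12716 loci tested. With upper-quartile scaling the loci also split 4 to 4, with a median of 0.02. Only H2-Ob had an unadjusted p under 0.05 and only H2-Ob had groups that did not overlap, that is, 1 of 8 loci each, where 5.93% and 10.5% of all loci tested did so in either direction. At an adjusted p under 0.05 in limma, 0 of 8 members and 0.0629% of all loci were called.

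The chains, the invariant chain and their coactivator were at near-equal means in the antibody-treated groups. The responsive-minus-nonresponsive difference was −0.10 (95% interval −0.79 to 0.58) for H2-Aa, −0.07 (−0.83 to 0.68) for H2-Ab1 with H2-Eb1, −0.10 (−0.87 to 0.68) for Cd74 and −0.05 (−0.61 to 0.52) for Ciita. H2-DMa differed by 0.01 (−0.47 to 0.48) and H2-DMb1 by 0.15 (−0.45 to 0.75). The limma adjusted p-values of these 6 loci were 0.981 to 0.998. Differences within these intervals were not detectable with 3 tumors a group.

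H2-Ob was higher in responsive tumors by 1.69 on the log2(FPKM + 1) scale (SE 0.50, 95% interval 0.48 to 2.91, limma adjusted p = 0.835). H2-Oa was higher by 1.10 (SE 0.47, −0.04 to 2.24, limma adjusted p = 0.837). The exact two-sided permutation p was 0.1 for H2-Ob, the smallest that 3 against 3 tumors allow, and 0.2 for H2-Oa. The separation of H2-Ob rests on nonresponsive tumor 1 at 6.67 and responsive tumor 2 at 8.23, whose deposited confidence intervals, 5.60 to 7.74 and 6.96 to 9.50, overlap. Without nonresponsive tumor 2 the difference of H2-Ob was 1.52 and its limma p 0.0503, and without each of the other 5 tumors it was 1.27 to 2.09 with a limma p of 0.00556 to 0.0436.

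**Figure D2:**
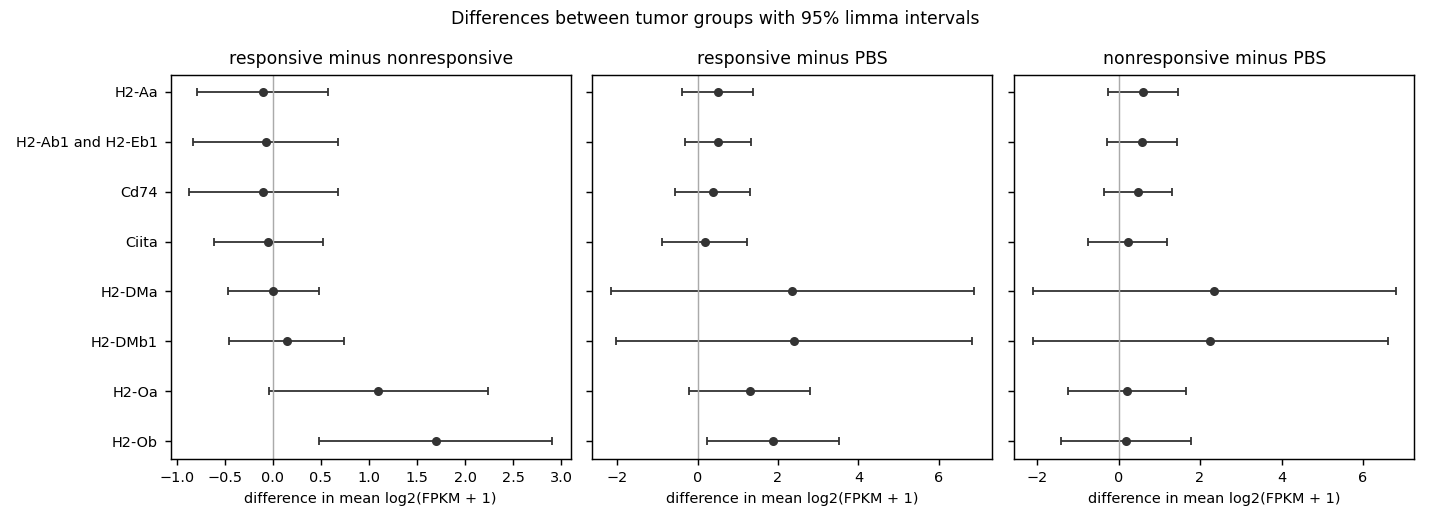
Differences in mean log2(FPKM + 1) for the 8 loci in 3 comparisons, with 95% intervals from limma on the horizontal axis, which is wider in the PBS panels. H2-Ob alone has an interval above 0 against nonresponsive tumors (0.48 to 2.91) and against PBS tumors (0.23 to 3.51), and the wide PBS intervals of H2-DMa and H2-DMb1 come with the PBS tumors listed at 0.

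Against PBS tumors, all 8 loci were higher in responsive tumors, with a median difference of 0.90 against −0.11 over 12715 loci. The median was 0.44 with the listed zeros left out and 0.24 without PBS tumor 1, where 7 of 8 loci were higher. H2-Ob was higher by 1.87 (95% interval 0.23 to 3.51, limma adjusted p = 0.249) without overlap of the groups, and its exact permutation p was 0.1. It was thus 1 of 8 loci with an unadjusted p under 0.05 and 1 of 8 without overlap, beside 19.1% and 28.8% of all loci. The call at an unadjusted p of 0.05 was lost without PBS tumor 1 (difference 1.26), PBS tumor 3 (1.92), responsive tumor 1 (1.97) or responsive tumor 3 (1.45), with limma p-values of 0.0583 to 0.0964. H2-Oa was higher by 1.30 (−0.20 to 2.80), H2-Aa by 0.50 (−0.38 to 1.38), H2-Ab1 with H2-Eb1 by 0.50 (−0.32 to 1.32), Cd74 by 0.38 (−0.55 to 1.31) and Ciita by 0.17 (−0.87 to 1.22). With the zeros left out H2-DMa was higher by 0.11 and H2-DMb1 by 0.21. At an adjusted p under 0.05 in limma, 0 of 8 members and 0.149% of all loci were called.

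Nonresponsive tumors also stood above PBS tumors at all 8 loci, with a median difference of 0.53 against −0.06 over 12663 loci, of 0.21 with the zeros left out, and of 0.17 without PBS tumor 1, where 5 of 8 loci were higher. H2-Aa was higher by 0.60 (−0.27 to 1.47), H2-Ab1 with H2-Eb1 by 0.58 (−0.28 to 1.44) and Cd74 by 0.47 (−0.37 to 1.32). Ciita, H2-Oa and H2-Ob differed by 0.22, 0.20 and 0.17, and all 3 were lower once PBS tumor 1 was left out, by −0.13, −0.39 and −0.43. With the zeros left out H2-DMa differed by 0.10 and H2-DMb1 by 0.06. Of the 8 loci, 0 had an unadjusted p under 0.05 in limma and 0 had groups without overlap, where 3.23% and 8.09% of all loci did, and 0 passed an adjusted p of 0.05 beside 0.0395% of all loci. Without PBS tumor 2, 1 of 8 loci had an unadjusted p under 0.05.

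With both antibody-treated groups pooled against PBS, the chains came closest to a difference. H2-Aa was higher by 0.55 (95% interval −0.07 to 1.17, limma adjusted p = 0.396) and H2-Ab1 with H2-Eb1 by 0.54 (−0.06 to 1.14, limma adjusted p = 0.396). Their exact permutation p-values were 0.119 and 0.0952, where 6 against 3 tumors can reach 0.0238. Cd74 was higher by 0.43 (−0.20 to 1.05), Ciita by 0.19 (−0.50 to 0.89), H2-Oa by 0.75 (−0.55 to 2.05) and H2-Ob by 1.02 (−0.59 to 2.63), and the median over the 8 loci was 0.65 against −0.07 over 13185 loci. H2-DMa and H2-DMb1 were higher by 0.11 and 0.14 with the zeros left out. In limma 0 of 8 loci had an unadjusted p under 0.05 (11.1% of all loci), 0 had no overlap (2.87%), and 0 an adjusted p under 0.05 (0.00758%).

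This comparison turns on PBS tumor 2. Without it 6 of 8 loci had an unadjusted limma p under 0.05, namely all but H2-Oa and H2-Ob, with differences of 0.85 for H2-Aa, 0.80 for H2-Ab1 with H2-Eb1, 0.70 for Cd74 and 0.62 for Ciita, and H2-DMa and H2-DMb1 each set against 1 PBS tumor listed at 0. The adjusted p of the members was then 0.355 at the lowest. Without PBS tumor 1 the differences fell to 0.26, 0.31 and 0.18 for H2-Aa, H2-Ab1 with H2-Eb1 and Cd74, and Ciita was lower by −0.15.

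How the members moved relative to each other within a tumor was read from the difference of each from H2-Aa in log2(FPKM + 1). Cd74 and the beta chain genes kept a near-constant ratio to H2-Aa, with an SD over all 9 tumors of 0.12 for each, from 1.37 to 1.75 for Cd74 and from 0.99 to 1.38 for the beta chains. The SD was 0.24 for Ciita, 0.67 for H2-Oa and 0.93 for H2-Ob. H2-Ob had an FPKM of 0.169%, 0.798% and 0.537% of H2-Aa in the PBS tumors, 0.595%, 0.279% and 0.279% in the nonresponsive tumors, and 1.47%, 1.06% and 2.29% in the responsive tumors. All responsive tumors were above all others in this share.

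Relative to H2-Aa, responsive tumors exceeded nonresponsive tumors by 1.80 for H2-Ob and 1.20 for H2-Oa, both without overlap, and PBS tumors by 1.37 for H2-Ob. Each of the 3 had an exact permutation p of 0.1, the smallest that 3 against 3 tumors can give, and an adjusted p of 0.467 over the 28 ratios compared. How many of all loci separate these groups by their ratio to H2-Aa was not computed. By plain level, 10.5% of all loci tested had no overlap between responsive and nonresponsive tumors, and 28.8% between responsive and PBS tumors. Ciita relative to H2-Aa went the other way: it was lower in the 6 antibody-treated tumors than in the 3 PBS tumors by −0.35, with an exact permutation p of 0.0238 and an adjusted p of 0.467. That separation is narrow. On the plain FPKM scale Ciita made up 2.17%, 3.01% and 2.19% of H2-Aa in the PBS tumors, 1.77%, 1.88% and 2.04% in the nonresponsive tumors, and 1.69%, 2.197% and 2.03% in the responsive tumors, where responsive tumor 2 overlapped the PBS group. With a pseudocount of 0.1 its exact permutation p was 0.0714.

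**Figure D3:**
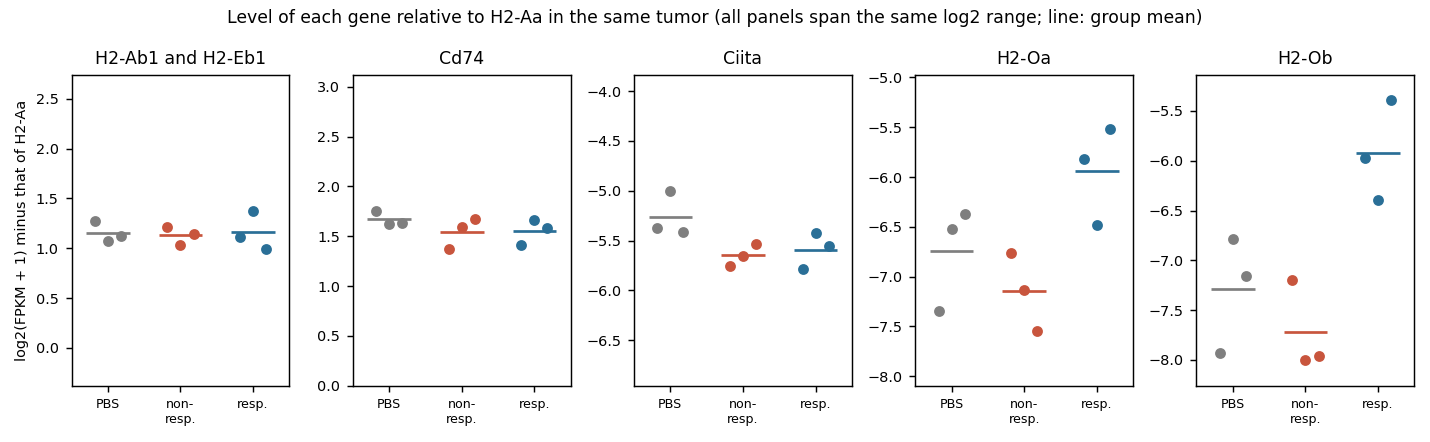
Level of 5 loci relative to H2-Aa in the same tumor, as a difference in log2(FPKM + 1), with 1 point per tumor and a line at the group mean. All panels span the same number of log2 units, so that the tight Cd74 panel (SD 0.12) can be compared with the wide H2-Ob panel (SD 0.93), where the responsive tumors stand above the rest.

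H2-O acts on H2-DM, so their levels were also set against each other in the antibody-treated tumors, a comparison added after the values were seen. H2-Oa had an FPKM of 7.26%, 4.94% and 3.11% of H2-DMa in the nonresponsive tumors and of 12.5%, 6.57% and 17.6% in the responsive tumors. H2-Ob had 6.85%, 2.86% and 2.00% of H2-DMb1 in the nonresponsive tumors and 13.9%, 6.76% and 19.1% in the responsive tumors. In both pairs responsive tumor 2 fell below nonresponsive tumor 1, and the exact permutation p was 0.2 for each. The H2-DMb1 values include H2-DMb2. In responsive tumor 2 H2-DMb1 also had a row of its own, at 98.5 against 122 for the sum. The order and p of this pair hold for the sum and were not computed without H2-DMb2. FPKM is a level of RNA per length and does not give the share of H2-DM protein bound by H2-O.

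The members varied together to different degrees. Over the 9 tumors, Pearson's r of log2(FPKM + 1) was 0.97 between H2-Aa and Cd74, 0.96 between H2-Aa and H2-Ab1 with H2-Eb1, and 0.97 between H2-Oa and H2-Ob. Between H2-Aa and the H2-O genes it was 0.75 and 0.70, and Ciita followed Cd74 with 0.91 and H2-Ob with 0.61. These values describe 9 tumors in which PBS tumor 1 was low for nearly all members.

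Genes that serve class II presentation without being members were read from a list of 16 loci tested, without H2-DMb2, whose row is that of the member H2-DMb1. Between responsive and nonresponsive tumors 4 were higher and 12 lower, with a median of −0.08, and the only one with an unadjusted limma p under 0.05 was Rfxank, a subunit of the RFX complex that binds the X element (0.64 higher, adjusted p = 0.835). Rfxank had an FPKM of 2.90, 5.24 and 2.45 in the PBS tumors, 7.80, 5.03 and 5.85 in the nonresponsive tumors, and 12.4, 9.60 and 8.78 in the responsive tumors. The responsive tumors were the 3 highest for this gene, and it exceeded PBS by 1.35 (limma adjusted p = 0.246). Of all loci tested, 5.93% had an unadjusted limma p under 0.05 between responsive and nonresponsive tumors. Groups did not overlap at 10.5% of all loci in that comparison and at 28.8% between responsive and PBS tumors.

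The partners of Rfxank in the RFX complex did not share its order. Rfx5 was listed at 0 in PBS tumor 2 and nonresponsive tumor 3 and otherwise ran from 3.90 to 11.9, and Rfxap was highest in PBS tumor 1 at 17.9. The 3 NF-Y subunits lay between 11.9 and 23.4 in all tumors. The most abundant genes of the list, the lysosomal proteases Ctsb and Ctsd (in 1 locus with Ifitm10), had an FPKM of 1126, 1222 and 626 and of 1145, 1115 and 475 in the nonresponsive tumors, and of 1433, 609 and 850 and of 1613, 579 and 641 in the responsive tumors. Ctss, the protease that makes the last cuts in the invariant chain, ran from 262 in PBS tumor 1 to 1291 in nonresponsive tumor 1. The groups overlapped for all 3 proteases.

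Interferon-gamma is the best known inducer of Ciita, and the genes of its axis were read alongside. All 13 loci of the list, from Ifng and its receptors to Irf1 and the induced GTPases, had a lower mean in the responsive group than in the nonresponsive one, with a median of −0.41, though 0 had an unadjusted limma p under 0.05 and 0 had groups without overlap. The mean over the list was lowest in responsive tumor 1, although for the receptor chains Ifngr1 and Ifngr2 and the kinase Jak1 responsive tumor 2 was the lowest of its group. Gbp2 with Gbp2b and Gbp3, the most abundant of the list, had an FPKM of 378, 376 and 462 in the nonresponsive tumors and of 109, 387 and 297 in the responsive tumors, and Ifng of 4.62, 5.50 and 6.43 and of 1.80, 6.10 and 6.31. Of the 9 MHC class I machinery loci 2 were higher and 7 lower (median −0.10), with the locus of B2m and Trim69 at 3153 to 5827 and that of H2-K1, H2-K2 and the ribosomal protein gene Rps18 at 3013 to 5954 over all tumors. Of 7 costimulation loci 3 were higher and 4 lower (median −0.33), among them Cd274 with Ric1 at 63.1 to 97.9 in responsive and 76.5 to 170 in nonresponsive tumors and Pdcd1lg2 at 0 to 18.5 and 6.57 to 37.6.

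Markers of the cells that carry class II molecules were compared between the same groups, and none of their loci had an adjusted limma p under 0.05. Of all loci tested there, 5.93% had an unadjusted limma p under 0.05, and 5314 of 12716 had a higher mean in responsive tumors. All 9 B cell loci had a higher mean in the responsive than in the nonresponsive group, with a median of 1.68, and 7 of them had an unadjusted limma p under 0.05, among them Cd79a (3.41 higher, with nonresponsive tumor 1 listed at 0), Fcer2a (1.83) and Ms4a1 (1.75), at adjusted p-values of 0.835 each. The most abundant were Cd79b and the locus that Cr2 shares with Cd46, a gene of many cell types, and Cr1l, which stood at 26.8 to 42.3 in all tumors. Without this shared locus, left out after the values were seen, the summed FPKM of the other 8 loci was 5.40, 81.0 and 46.4 in the PBS tumors, 46.2, 37.9 and 30.6 in the nonresponsive tumors, and 168, 74.3 and 247 in the responsive tumors, and all 8 had a higher mean in the responsive group (median 1.68). PBS tumor 2 thus lay above responsive tumor 2. These genes are high where H2-Ob is high, and the part of B cell number in the H2-Ob difference was not tested.

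Dendritic cells, macrophages and T cells were read the same way. Of 9 dendritic cell loci 6 were higher and 3 lower in responsive than in nonresponsive tumors, with a median of 0.06, a summed FPKM of 70.9 to 86.5 against 61.7 to 69.0, and Flt3 the one with an unadjusted limma p under 0.05 (0.83 higher). The gap between these sums rests on the locus that Clec9a shares with Clec1b, without which the sums of the groups overlap. This locus was at 14.0, 11.2 and 12.9 in the responsive tumors and at 0, 4.71 and 7.83 in the nonresponsive tumors. Itgax with Itgad, the most abundant, was at 19.0 to 23.4 and 20.3 to 24.1, and Ccr7 at 9.64 to 19.8 and 8.14 to 12.5. Of 9 macrophage loci 1 was higher and 8 lower, with a median of −0.45 and a summed FPKM of 1212 to 1951 against 1374 to 2061. Fcgr1 was the one of them with an unadjusted p under 0.05 in limma (difference −0.84), and C1qb with C1qc was at 578 to 890 against 660 to 972. Of 10 T cell loci 9 were higher, with a median of 0.52, and 4 had an unadjusted p under 0.05, among them Cd2 (0.69), Cd3d (0.64) and Lck (0.60). Cd3g and Cd3e, the most abundant, were at 29.1 to 39.0 and 17.5 to 21.6 in responsive and at 25.2 to 26.0 and 15.4 to 18.8 in nonresponsive tumors.

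Markers of other cells were compared as well, again with no locus at an adjusted limma p under 0.05. All 10 hepatocyte loci had a higher mean in the responsive than in the nonresponsive group, with a median of 1.39 and a summed FPKM of 6573 to 14249 against 2384 to 7638, and of 385 to 3719 in PBS tumors. Of them 6 had an unadjusted limma p under 0.05, with Pck1 (1.87), Apob (1.84) and Cps1 (1.45) the largest, and Alb and Apoa1, the most abundant, ran from 173 to 5041 and from 72.7 to 3099 over all tumors. All 5 endothelial loci (median −0.15) and all 5 neutrophil loci (median −0.27) were lower, with 0 at an unadjusted p under 0.05 in limma. Their most abundant genes overlapped between the groups. In responsive tumors Pecam1 was at 37.0 to 46.6, Cdh5 at 19.9 to 36.4, S100a8 (with S100a6 and S100a7a) at 772 to 1609 and S100a9 at 209 to 1785, and in nonresponsive tumors at 28.8 to 62.7, 23.7 to 45.2, 824 to 2299 and 254 to 2760. Pancreatic acinar genes stood out in nonresponsive tumor 2, with Ctrb1 at 415 and at 0 in the other tumors, and muscle genes in nonresponsive tumor 3 and PBS tumor 1, with Mylpf at 89.0 and 42.7 and at 0 to 16.1 elsewhere. Of these lists 2 loci each could be tested, and all 4 were lower in responsive tumors, 1 of them, Mylpf, at an unadjusted p under 0.05. The most abundant loci of these 2 lists are shared ones. That of Amy2a5, the other amylase genes and Rnpc3 had an FPKM of 510 in nonresponsive tumor 2 and 6.77 to 49.1 elsewhere. That of Tnnt3 and Lsp1, a gene of leukocytes, had 64.8 to 117 in all tumors and cannot be read as muscle. For the hepatocyte list, whole-tumor values do not tell RNA of liver cells from that of the hepatoma cells. The part of hepatocytes or of other tissue in the class II differences was not tested. The H2-Ob difference was 1.52 without nonresponsive tumor 2 and 1.47 without nonresponsive tumor 3. Leaving out 1 tumor at a time does not test the part of such tissue.

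Against PBS the same lists gave these values. In responsive tumors 11 of 16 class II partner loci, 7 of 13 interferon-gamma loci, 5 of 9 class I loci, 5 of 7 costimulation loci, 8 of 9 macrophage loci, 6 of 9 dendritic cell loci, and all B cell, T cell and hepatocyte loci had a higher mean. The medians were 0.26, 0.02, 0.01, 0.15, 0.56, 0.14, 2.06, 0.80 and 2.74, respectively. An unadjusted limma p under 0.05 was reached by all 10 hepatocyte loci (Ttr 3.24, Apob 3.08, Fgb 3.07), by 3 B cell loci (among them Fcer2a 2.097 and Cd22 1.33), by Rfxank of the class II partners (1.35), by the locus that Clec9a of dendritic cells shares with Clec1b (2.13), by C1qa of the macrophages (0.63) and by the locus of the amylases and Rnpc3 (1.60), and in the lower direction by Jak2 (−0.69). In nonresponsive tumors Adgre1 (1.26), Fcgr1 (1.02) and the locus of Tnnt3 and Lsp1 (0.61) reached it. The mean was higher than in PBS for all 10 hepatocyte loci (median 1.35), all 9 macrophage (0.77), all 5 neutrophil (0.53) and all 5 endothelial loci (0.49), for 11 of 13 interferon-gamma (0.37), 9 of 10 T cell (0.26), 9 of 16 class II partner (0.50), 7 of 9 class I (0.14), 5 of 7 costimulation (0.48) and 6 of 9 B cell loci (0.27), and for 4 of 9 dendritic cell loci (−0.09). With both antibody-treated groups together it was reached by 9 hepatocyte loci (Ttr 2.51, Fgb 2.47 and Apob 2.16 the largest), C1qb with C1qc (0.67), C1qa (0.61), Rfxank (1.03) and the locus of Tnnt3 and Lsp1 (0.51). Of all loci tested against PBS, 19.1% had an unadjusted limma p under 0.05 in responsive, 3.23% in nonresponsive and 11.1% in all antibody-treated tumors. The mean was higher than in PBS at 5288 of 12715 loci in responsive and at 5621 of 12663 in nonresponsive tumors. None of the list loci had an adjusted p under 0.05 in limma, the lowest being 0.243.

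**Figure D4:**
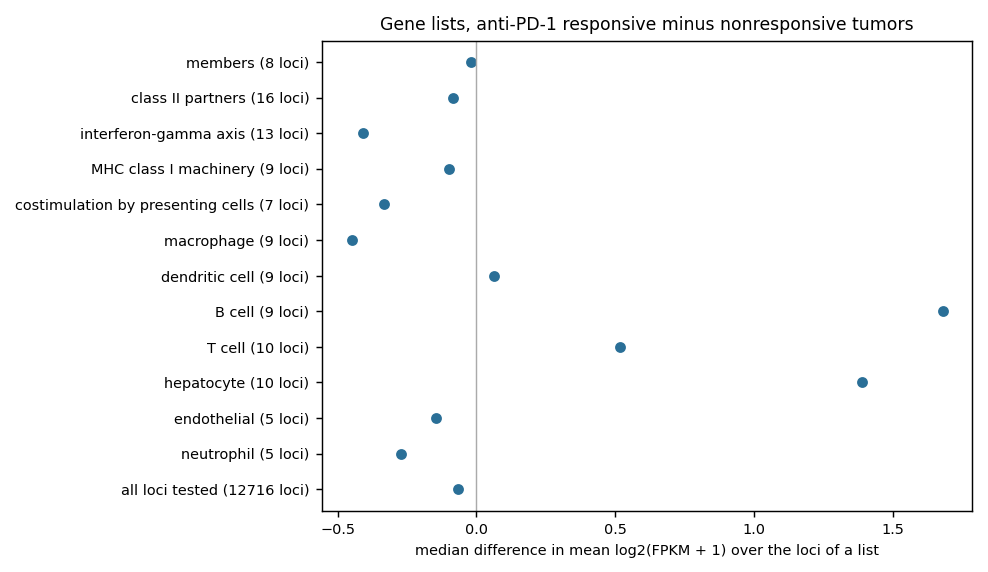
Median difference between responsive and nonresponsive tumors over the loci of each gene list, in log2(FPKM + 1) on the horizontal axis, with the number of loci tested in brackets and the class II partners without the H2-DMb2 row. The class II members sit at −0.02, close to all loci tested at −0.07, while the B cell list is at 1.68 and the interferon-gamma axis at −0.41.

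Across the 9 tumors H2-Aa was compared with the mean log2(FPKM + 1) of 6 marker lists. The largest r was that with T cell markers, with Pearson's r = 0.85 (permutation p = 0.00655, adjusted over the 6 lists 0.0393) and Spearman's rho = 0.62 (permutation p = 0.0857, adjusted 0.216). Nonresponsive tumor 1, the highest for H2-Aa, had a T cell mean of 3.30, below the 3.46 to 3.88 of the responsive tumors. Without PBS tumor 1 and responsive tumor 3, the farthest from the median of the list, r was 0.45. For macrophage markers r was 0.75 (permutation p = 0.0188, adjusted 0.0565) and rho 0.75 (permutation p = 0.0255, adjusted 0.153), and r was 0.52 without PBS tumor 1 and nonresponsive tumor 2. The other 4 lists had an r of 0.58 to 0.68 with adjusted permutation p-values of 0.0768 to 0.0936. B cell markers were among them with r = 0.63, which became −0.15 without PBS tumor 1 and responsive tumor 3. Across all 9 tumors these values of r thus lean on a few tumors, PBS tumor 1 above all. As deviations from the group means, r of H2-Aa was 0.95 with the T cell list and 0.86 with both the dendritic cell and the B cell list. Without PBS tumor 1 these became 0.91, 0.78 and 0.68. For the macrophage, hepatocyte and interferon-gamma lists it was 0.63 to 0.64, and 0.13 to 0.36 without PBS tumor 1.

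The same comparison for H2-Ob, H2-Oa and Ciita was added after the values were seen, with adjustment over 18 relations. H2-Ob followed the B cell markers with r = 0.95 (permutation p = 0.000259, adjusted 0.00419) and rho = 0.97 (permutation p = 0.000165, adjusted 0.00298). Over the 8 B cell loci other than that of Cr2, r was also 0.95. Without PBS tumor 1 and responsive tumor 3 it was 0.84 over all 9 loci, and as deviations from the group means it was 0.88 over 9 tumors and 0.76 without PBS tumor 1. As such deviations H2-Ob had nearly the same r with T cell markers, 0.87 and 0.74, and 0.76 and 0.62 with dendritic cell markers. H2-Oa gave r = 0.94 and rho = 0.90 with B cell markers (adjusted permutation p = 0.00419 and 0.0183) and 0.78 without PBS tumor 1 and responsive tumor 3. Both H2-O genes had an r of 0.82 to 0.88 with the dendritic cell, T cell and hepatocyte lists too, and 0.35 to 0.50 with macrophage markers. Ciita was closest to T cell markers, with r = 0.85 (permutation p = 0.00438, adjusted 0.0109) and rho = 0.78 (permutation p = 0.0172, adjusted 0.0388), and r = 0.66 without PBS tumor 1 and responsive tumor 3.

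**Figure D5:**
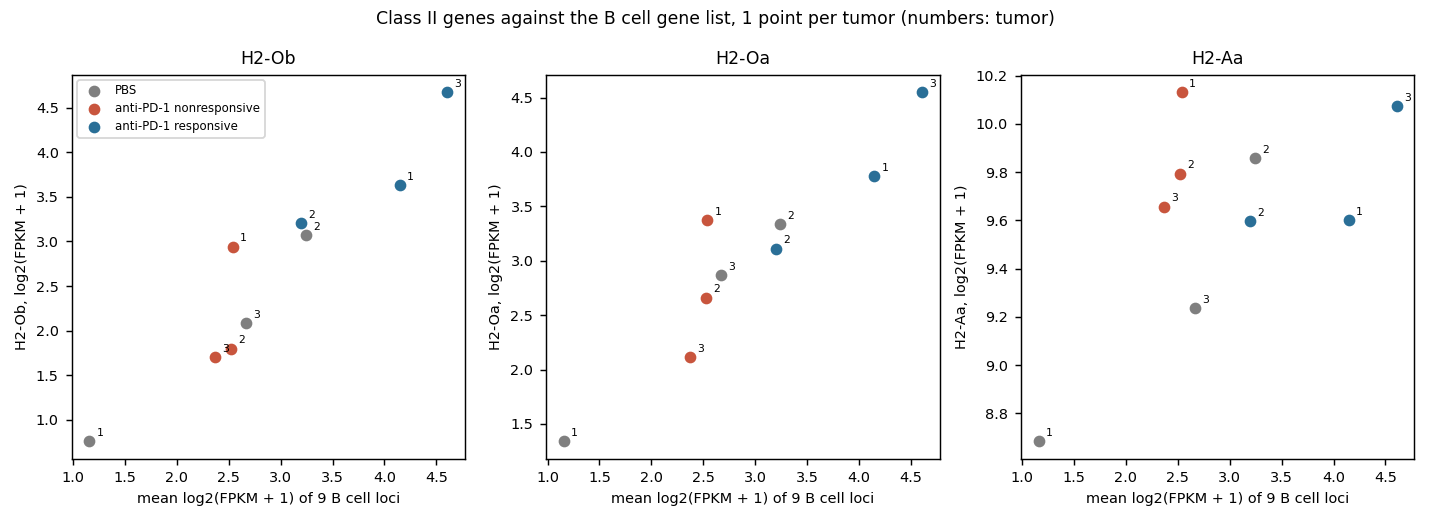
H2-Ob, H2-Oa and H2-Aa against the mean of 9 B cell loci, 1 of them shared by Cr2, Cd46 and Cr1l, all in log2(FPKM + 1), with 1 point per tumor and tumor numbers beside the points. H2-Ob is higher where the B cell mean is higher (r = 0.95), from PBS tumor 1 at the lower left to responsive tumor 3 at the upper right, whereas at H2-Aa nonresponsive tumors reach high values at low B cell means (r = 0.63). The contrast is one across groups. As deviations from the group means, r was 0.88 for H2-Ob and 0.86 for H2-Aa.

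The loci most like each of 3 members were sought among 13177 loci by Pearson's r over the 9 tumors. For H2-Ob they included St14 (0.99), Fcmr (0.98), the receptor for the Fc part of IgM, Spib (0.98), a transcription factor of B cells and plasmacytoid dendritic cells, and Fam214a (0.98). For Ciita they were Tbx21 (0.96), a transcription factor of T and NK cells, Ubash3a (0.95), Il2rb (0.95), Tnfrsf18 (0.93) and Grap2 with Gm49553 (0.92). For H2-Aa they were Nectin4 (0.95), Tnfrsf14 (0.95), Evl (0.95), Tmem229b (0.95) and Arrdc3 (0.94). With 9 tumors and 13177 loci, high values of r arise readily, and the names are given as a description.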

How the data were processed

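RNA of 9 whole tumors was sequenced on an Illumina platform after TruSeq library preparation. The authors assembled transcripts within each tumor, estimated FPKM with Cufflinks and deposited 1 table of values and confidence limits per tumor. The submitters' processing notes name Bowtie2 2.2.4, TopHat2 2.1.1 and the mm8 build. The build of the file coordinates was not settled. Their gene starts differ from GRCm38 (H2-Aa lies 218974 bases further along), and a match to a later build could not be checked, so GRCm38 positions are printed. A Cuffdiff table of the authors' own group comparisons was not used.

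Rows were joined by symbol. Symbols that shared a row in any tumor became 1 locus with summed FPKM, rows without a name were left out, and 7 loci with a failed estimate were dropped. Each comparison was fitted to log2(FPKM + 1) of its own tumors by limma 3.58.1 under R 4.3.3 (eBayes with trend), at an FPKM of at least 1 in 3 of them, with Benjamini-Hochberg adjustment over all loci. Permutation tests were exact and two-sided and ran with correlations in Python 3.11.15 (numpy 2.4.6, pandas 2.3.3, scipy 1.17.1), and plots were drawn with matplotlib 3.10.9. The fit was tested on simulated data. Correlations of all loci between tumors were 0.655 to 0.952, and at most 0.00796% of loci above 0 in both had identical values in any 2 tumors.

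The members and the 13 lists (class II partners, interferon-gamma axis, MHC class I machinery, costimulation, macrophage, dendritic cell, B cell, T cell, hepatocyte, endothelial, neutrophil, pancreatic acinar, skeletal muscle) were chosen with earlier results of these data known. Named genes are the members, the 3 largest differences per list and comparison at an unadjusted p under 0.05, the 2 most abundant of each list, and the 5 loci most like H2-Aa, Ciita and H2-Ob. Rfx5, Rfxap, NF-Y, Ctss, H2-Ea, Ifng, Ctrb1 and the genes listed at 0 were named after their values were seen. Some genes that this rule names are not reported here. Alternatives were another pseudocount, other filters, upper-quartile scaling, separate symbols, a joint fit of all 9 tumors, a block on the replicate number, leaving out each tumor, and, added after seeing the data, leaving out listed zeros or the rows that H2-DMb2 and Cr2 share.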

Additional observations from a re-analysis of the deposited data

Results flagged for a closer look

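Within the 6 antibody-treated tumors, 28 values were tested for a tumor far from the others (8 loci, 7 ratios to H2-Aa and 13 list means), and 3 list means had a gap to the nearest tumor above Dixon's 95% limit for 6 values, given as a share of the whole range. Chance flags about 1 in 20 such groups. None of the class II loci or ratios was among them. The mean of the interferon-gamma axis was low in responsive tumor 1, with a gap of 0.765 of the range. The mean of the pancreatic acinar list was high in nonresponsive tumor 2, with a gap of 0.916. The mean of the skeletal muscle list was high in nonresponsive tumor 3, with a gap of 0.736. Their part in the class II levels was not tested.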

How the results depend on the processing

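At an adjusted p under 0.05 in limma, 0 of the 8 loci were called in any comparison under any alternative. The number of loci with an unadjusted p under 0.05 stayed within 1.5 times the reported number under all pseudocounts, filters, scalings and fits, and moved when tumors were left out: from 0 to 2 between responsive and nonresponsive tumors, from 0 to 2 between responsive and PBS tumors, from 0 to 1 between nonresponsive and PBS tumors, and from 0 to 6 between all antibody-treated and PBS tumors. Between responsive and nonresponsive tumors leaving out 1 tumor changed the sign of small differences, over ranges of −0.262 to 0.0319 for H2-Aa, −0.17 to 0.10 for H2-Ab1 with H2-Eb1, −0.271 to 0.0501 for Cd74, −0.22 to 0.13 for Ciita and −0.0705 to 0.0945 for H2-DMa. Against PBS the ranges that crossed 0 were −0.17 to 0.60 for Ciita in responsive tumors, −0.13 to 0.65 for Ciita, −0.39 to 0.61 for H2-Oa and −0.43 to 0.72 for H2-Ob in nonresponsive tumors, and −0.15 to 0.62 for Ciita in all antibody-treated tumors. With each symbol on its own, H2-Ab1 differed by 0.35 between responsive and nonresponsive tumors, since the row shared with H2-Eb1 then counts whole for responsive tumor 2.

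The number of ratios to H2-Aa with a permutation p under 0.05 was 1, with a range of 0 to 1 over left-out tumors and 0 with a pseudocount of 0.1. The correlation of H2-Aa with macrophage markers was 0.76 with upper-quartile scaling, where its adjusted permutation p was 0.0464. Over left-out tumors r ran from 0.48 to 0.81 for macrophage, 0.45 to 0.82 for dendritic cell, 0.59 to 0.92 for T cell and 0.18 to 0.80 for hepatocyte markers, and the call for T cells was lost without any PBS tumor, without nonresponsive tumor 2 or 3, or without responsive tumor 3. The causes were not tested.

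Deviations from the group means correlated by −0.50 to 0.64 over the 9 pairs of tumors with equal replicate number. Tumors of unequal number were not compared, so these values do not decide whether replicate numbers pair the tumors. With the replicate number as a block, 1, 1 and 0 of the 8 loci had an unadjusted p under 0.05 in the 3 comparisons of groups, the same numbers as without it. Depth limits H2-Oa and H2-Ob most, the members with the widest deposited intervals in proportion to their level.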
